A study of Mus musculus with 6 samples.

Results

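KLF3 corepressor complex genes are the genes for the proteins through which Krüppel-like factor 3 (KLF3) silences its targets: Ctbp1, Ctbp2, Fhl3, Rcor1, Kdm1a, Hdac1, Hdac2, Wiz, Ehmt1 and Ehmt2. They were taken by name as every probe set whose platform annotation gives exactly 1 of these 10 symbols. This gave 16 probe sets of the 45037 on the array and 10 of 17097 named genes. The brightest probe set stood for a gene: 5 genes had 1 probe set, 4 had 2 and Rcor1 had 3. A further 2 probe sets that pair Ctbp2 with another symbol were left out.

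The arrays compared eosinophils of 3 Klf3-/- mice with those of 3 WT mice, 1 GeneChip HT MG-430PM array per mouse, and asked how gene expression in these cells differs when KLF3 is missing. All 6 were FVB/NJ males from Klf3+/- intercrosses, 12 weeks old, fed chow without treatment at 22 °C. Cells were sorted from the stromal vascular fraction (SVF) of inguinal subcutaneous (subcut) adipose tissue by flow cytometry: a high side scatter was required together with surface CD45, CD11b, F4/80 and Siglec-F. The Klf3 deletion was carried by the whole animal, so the eosinophils came from Klf3-/- adipose tissue as well as being Klf3-/- themselves, and an effect within the cell and an effect of its surroundings cannot be told apart.

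KLF3 is a zinc finger factor that binds CACCC boxes and related GC-rich elements. It represses mainly by recruiting C-terminal binding protein (CtBP), which contacts a short peptide motif in its amino-terminal part and in turn gathers enzymes that erase active histone marks and write repressive ones. FHL3, a LIM-domain protein, is a separate binding partner of KLF3. The arrays measure the mRNAs of these partners and not the binding of any of them to KLF3 or to chromatin.

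Promoter sequences matched 9 of the 10 genes in RefSeq (mouse build GRCm38.p6), giving 14 promoters. Hdac1 was not among them. The promoters of the direct partners Fhl3 and Ctbp1 and of Rcor1 are shown as the 250 bases before the transcript start, 5′ to 3′ on the gene's own strand. Rcor1 was chosen by its values: 2 of its 3 probe sets separated the genotypes after the normalisation described below, and the other did not. Capitals mark the KLF-type motif CCNCNCCC or its reverse complement GGGNGNGG.
Fhl3, chr4:124700449-124700698, plus strand: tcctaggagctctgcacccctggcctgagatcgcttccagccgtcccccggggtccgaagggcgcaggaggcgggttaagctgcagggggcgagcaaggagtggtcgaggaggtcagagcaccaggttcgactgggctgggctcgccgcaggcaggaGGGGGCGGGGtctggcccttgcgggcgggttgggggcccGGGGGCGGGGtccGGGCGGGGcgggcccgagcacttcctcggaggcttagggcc
Rcor1, chr12:111039117-111039366, plus strand: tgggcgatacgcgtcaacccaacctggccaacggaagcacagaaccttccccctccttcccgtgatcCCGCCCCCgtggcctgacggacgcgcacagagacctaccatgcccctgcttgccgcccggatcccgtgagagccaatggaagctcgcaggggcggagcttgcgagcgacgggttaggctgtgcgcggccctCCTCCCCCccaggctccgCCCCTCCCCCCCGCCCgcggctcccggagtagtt
Ctbp1, chr5:33275005-33275254, minus strand: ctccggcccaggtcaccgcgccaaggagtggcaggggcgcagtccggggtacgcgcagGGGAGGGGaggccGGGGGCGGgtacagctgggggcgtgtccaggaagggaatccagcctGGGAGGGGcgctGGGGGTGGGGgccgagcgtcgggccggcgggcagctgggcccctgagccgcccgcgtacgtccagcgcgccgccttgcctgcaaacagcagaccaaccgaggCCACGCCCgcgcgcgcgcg
The Fhl3 sequence held 5 matches of CCNCNCCC, Rcor1 5 and Ctbp1 6, counting overlapping ones. CACCC or its reverse complement GGGTG occurred 1 time in the Fhl3 window, 0 times in that of Rcor1 and 1 time in that of Ctbp1, there overlapping a CCNCNCCC match. In windows reaching from 250 bases before to 50 after the start, CCNCNCCC was found in 8 of the 14 member promoters and in 45.9% of 32851 promoters in RefSeq. CACCC was found in 9 of the 14 and in 52% of all. These matches describe letters only, and no binding was measured here. Ctbp1 was the single member on the chromosome of Klf3 itself: it lies on chromosome 5 from 33247723 to 33275004, 31.5 Mb from Klf3.

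The deposited values are linear intensities whose array medians were 46.7, 58.7 and 35.4 in Klf3-/- mice 1 to 3 and 36.8, 56.5 and 30.3 in WT mice 1 to 3. Since the arrays were on no common scale, log2 intensities were quantile-normalised between arrays, and all log2 values below are on that scale. A background level was set at the 95th percentile of 42 olfactory receptor probe sets (4.79), which encode the odorant receptors of nasal sensory neurons, and 61.0% of all probe sets lay above it. The defining eosinophil markers Siglecf (4.15 ± 0.11 in Klf3-/- and 4.58 ± 0.21 in WT, SD), Epx, Prg2, Il5ra and Ccr3 averaged below this level, and 9 of 16 eosinophil markers lay above it. By contrast, 16 of 17 macrophage, 15 of 15 stromal and 10 of 10 dendritic cell markers lay above it, including C1qa at 12.19 ± 0.46 and 12.05 ± 0.43 (Klf3-/- and WT, SD, n = 3 each). The label of the sorted cells was thus not borne out by Siglecf, Epx, Prg2, Il5ra and Ccr3 on these arrays, while other genes of the eosinophil list were above background. The member levels below are those of the sorted samples. In such bulk RNA, fewer cells of a type and less RNA per cell cannot be told apart.

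Of the 6 Klf3 probe sets, 5 read higher in the arrays labelled Klf3-/- and 1 lower. The brightest, 1429360_PM_at, measured 514, 978 and 437 in Klf3-/- and 377, 404 and 216 in WT as deposited (log2 fold change 0.69, limma adjusted p = 0.868). The lower one, 1421604_PM_a_at, measured 178, 258 and 195 in Klf3-/- against 360, 429 and 294 in WT (log2 fold change -1.01, adjusted p = 0.854). The remaining 4, 1454666_PM_at, 1431630_PM_a_at, 1441200_PM_at and 1442920_PM_at, had log2 fold changes of 0.96, 1.74, 2.41 and 2.83. All 6 separated the genotypes without overlap, beside 4.49% of all probe sets higher and 6.51% lower. They also did so as deposited and after centring on array medians. The lowest adjusted p of the 6 was 0.2 in limma. These probe sets lie in the disrupted gene. Their position with respect to the disrupted stretch of the gene was not known here, so that they check neither the labels nor the deletion.

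None of the 16 probe sets passed an adjusted p of 0.05 in limma, in a comparison where 0% of all probe sets passed. The lowest adjusted p of a member was 0.868. At an unadjusted p under 0.05, 0 members were higher and 1 was lower, against 3.1% higher and 2.39% lower over all probe sets (3.61% and 2.47% over genes). All 16 probe sets averaged above background over the 6 arrays, Fhl3 with 1 array below it.

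**Figure D1:**
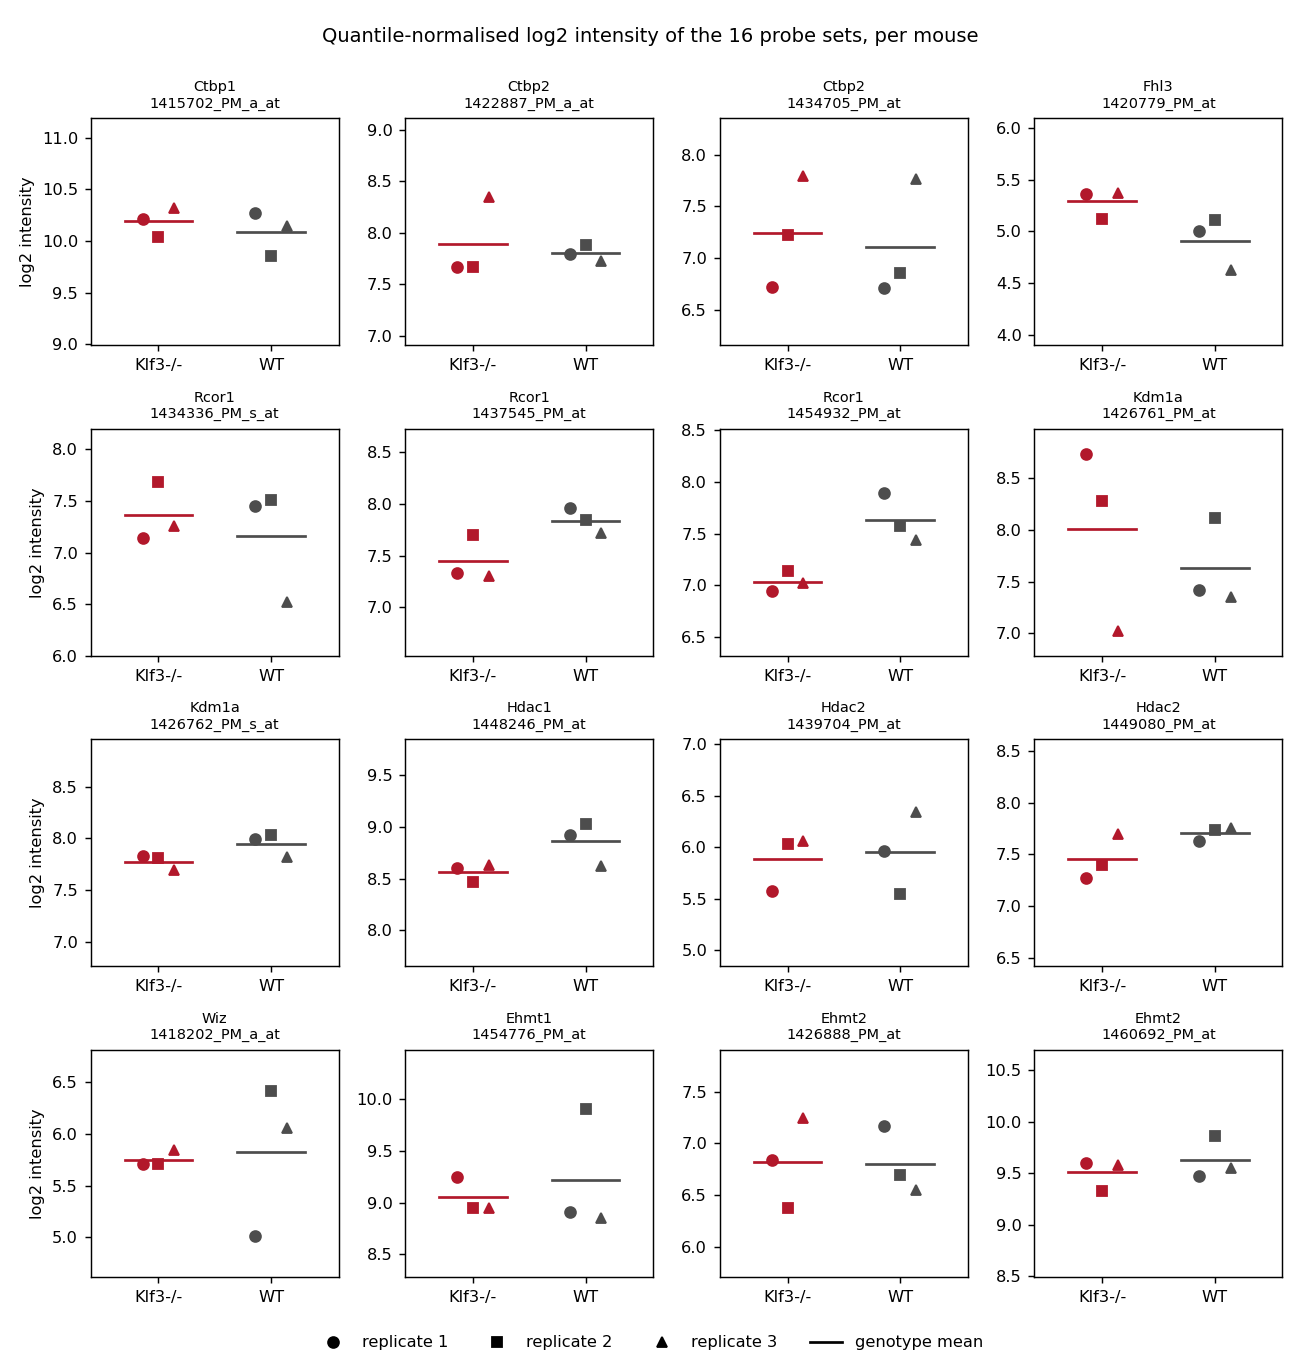
Quantile-normalised log2 intensity of each of the 16 probe sets (y axis, every panel spanning the same range of log2 units) in the 3 Klf3-/- mice (red, left) and the 3 WT mice (grey, right); lines are genotype means and marker shapes are replicate numbers. The genotypes separate without overlap for Fhl3 and for Rcor1 probe sets 1437545_PM_at and 1454932_PM_at, and overlap in the other 13 panels.

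The proteins that touch KLF3 directly came first. Ctbp1, which encodes the CtBP family member that bridges DNA-bound repressors to histone-modifying enzymes, measured 10.21, 10.04 and 10.32 in Klf3-/- mice 1 to 3 and 10.27, 9.86 and 10.15 in WT mice 1 to 3. These values interleaved, with means of 10.19 ± 0.14 in Klf3-/- and 10.09 ± 0.21 in WT. The log2 fold change was 0.10 (95% interval -0.36 to 0.56, limma adjusted p = 0.974), so that a change between a 0.778-fold and a 1.47-fold level was compatible with these arrays.

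Ctbp2 encodes the closely related partner, whose locus also yields the synaptic ribbon protein RIBEYE. Its brightest probe set, 1422887_PM_a_at, measured 7.67, 7.67 and 8.35 in Klf3-/- against 7.79, 7.88 and 7.73 in WT. Klf3-/- mouse 3 was higher than all the others, and the other 2 Klf3-/- mice were below every WT mouse. The difference was 0.09 (-0.46 to 0.65, adjusted p = 0.980) and turned to -0.13 without Klf3-/- mouse 3. The other probe set, 1434705_PM_at, measured 6.72, 7.22 and 7.80 in Klf3-/- and 6.71, 6.86 and 7.77 in WT. It followed the replicate number more than the genotype, with both mice numbered 3 at the top, and its difference was 0.13 (-0.75 to 1.02, adjusted p = 0.982). The Klf3-/- mouse was higher in all 3 numbered pairs, by 0.02, 0.35 and 0.03.

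Fhl3 encodes the LIM-only cofactor. As deposited it measured 44.9, 46.6 and 34.4 in Klf3-/- and 27.7, 45.0 and 18.5 in WT, and after normalisation 5.36, 5.12 and 5.37 in Klf3-/- and 5.0, 5.11 and 4.62 in WT. All 3 Klf3-/- values lay above all 3 WT values only after quantile normalisation, and the gap between Klf3-/- mouse 2 and WT mouse 2 was 0.01. Means were 5.29 ± 0.14 in Klf3-/- and 4.91 ± 0.26 in WT, a log2 fold change of 0.38 (-0.11 to 0.86, adjusted p = 0.910), and the exact permutation p was 0.1, the smallest that 3 against 3 arrays allow. Fhl3 lay close to background, with WT mouse 3 under the level of 4.79. With olfactory receptor pseudogenes included the level was 5.10, and 15 of the 16 member probe sets stayed above it, Fhl3 being the exception by its overall mean.

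The CoREST module came next. Rcor1 encodes CoREST, the scaffold that holds KDM1A and the deacetylases HDAC1 and HDAC2 together. Its probe sets did not read alike. Probe set 1454932_PM_at measured 6.94, 7.14 and 7.02 in Klf3-/- against 7.89, 7.57 and 7.44 in WT. Every Klf3-/- value lay below every WT value, with means of 7.03 ± 0.10 in Klf3-/- and 7.63 ± 0.23 in WT. The log2 fold change was -0.60 (-1.06 to -0.14), a 0.659-fold level, with an unadjusted p of 0.0171 and an adjusted p of 0.868 in limma. This was the 1 member under an unadjusted p of 0.05, and the count was 0 on the values as deposited, without Klf3-/- mouse 1 and without WT mouse 1.

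The brightest Rcor1 probe set, 1437545_PM_at, measured 7.33, 7.70 and 7.30 in Klf3-/- against 7.96, 7.85 and 7.72 in WT. It separated the genotypes in the same direction by a smaller margin, at -0.40 (-0.86 to 0.06, adjusted p = 0.910). The third Rcor1 probe set, 1434336_PM_s_at, measured 7.14, 7.68 and 7.26 in Klf3-/- and 7.45, 7.51 and 6.52 in WT, with overlapping genotypes. Its difference ran the other way, at 0.20 (adjusted p = 0.969), and turned to -0.12 without WT mouse 3, the lowest array. Within each array, 1454932_PM_at minus 1434336_PM_s_at was -0.20, -0.54 and -0.24 in Klf3-/- and 0.44, 0.06 and 0.92 in WT. This contrast between probe sets of 1 gene differed by -0.80 between genotypes without overlap (exact permutation p = 0.1, the smallest possible). It was the largest of all such contrasts among the members, so that its p is that of a selected value. The other Rcor1 contrasts also separated, and those of Ctbp2, Kdm1a, Hdac2 and Ehmt2 overlapped. Both probe sets were designed from the same source sequence. As deposited, 1454932_PM_at measured 135, 216 and 98.9 in Klf3-/- and 202, 278 and 109 in WT, and there the genotypes overlapped.

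Kdm1a encodes LSD1, the demethylase that removes methyl groups from lysine 4 of histone H3. Its brightest probe set, 1426762_PM_s_at, measured 7.83, 7.81 and 7.69 in Klf3-/- and 7.99, 8.03 and 7.82 in WT. The Klf3-/- mouse was lower in all 3 numbered pairs but the genotypes overlapped, and the difference was -0.17 (-0.58 to 0.23, adjusted p = 0.954). Probe set 1426761_PM_at measured 8.74, 8.28 and 7.02 in Klf3-/- and 7.42, 8.12 and 7.35 in WT. It had the widest interval of the 16, at 0.38 (-0.69 to 1.45, adjusted p = 0.960), with the Klf3-/- mice holding both the highest and the lowest value.

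Hdac1 and Hdac2 encode the class I deacetylases that remove acetyl groups from histone tails. Hdac1 measured 8.60, 8.47 and 8.63 in Klf3-/- against 8.92, 9.03 and 8.62 in WT. The WT mice numbered 1 and 2 were high and WT mouse 3 fell among the Klf3-/- values, giving -0.29 (-0.74 to 0.15, adjusted p = 0.925). Hdac2, by probe set 1449080_PM_at, measured 7.27, 7.40 and 7.70 in Klf3-/- against 7.63, 7.74 and 7.76 in WT. Klf3-/- mouse 3 overlapped the tight WT group, and the difference was -0.25 (-0.70 to 0.20, adjusted p = 0.946). The dimmer Hdac2 probe set, 1439704_PM_at, measured 5.58, 6.03 and 6.06 in Klf3-/- and 5.96, 5.55 and 6.34 in WT, with a difference of -0.06 (adjusted p = 0.989).

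The methyltransferase module consists of EHMT1 (GLP) and EHMT2 (G9a), which methylate lysine 9 of histone H3, and WIZ, a zinc finger protein that links them to CtBP. Wiz measured 5.71, 5.71 and 5.84 in Klf3-/- and 5.01, 6.42 and 6.06 in WT. The Klf3-/- mice were tightly grouped inside the spread of the WT mice, with SDs of 0.08 in Klf3-/- and 0.74 in WT, and the difference was -0.08 (-0.92 to 0.77, adjusted p = 0.991). Ehmt1 measured 9.25, 8.95 and 8.95 in Klf3-/- against 8.91, 9.91 and 8.85 in WT. Here WT mouse 2 stood well above the other 5 mice. The difference of -0.18 (-0.91 to 0.56, adjusted p = 0.971) became 0.17 without it.

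Ehmt2, by its brightest probe set 1460692_PM_at, measured 9.60, 9.33 and 9.58 in Klf3-/- and 9.47, 9.86 and 9.55 in WT. Again WT mouse 2 was highest, the genotypes overlapped and the difference was -0.12 (-0.58 to 0.34, adjusted p = 0.970). Probe set 1426888_PM_at measured 6.84, 6.37 and 7.24 in Klf3-/- and 7.17, 6.69 and 6.55 in WT, with a difference of 0.02 (adjusted p = 0.997).

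**Figure D2:**
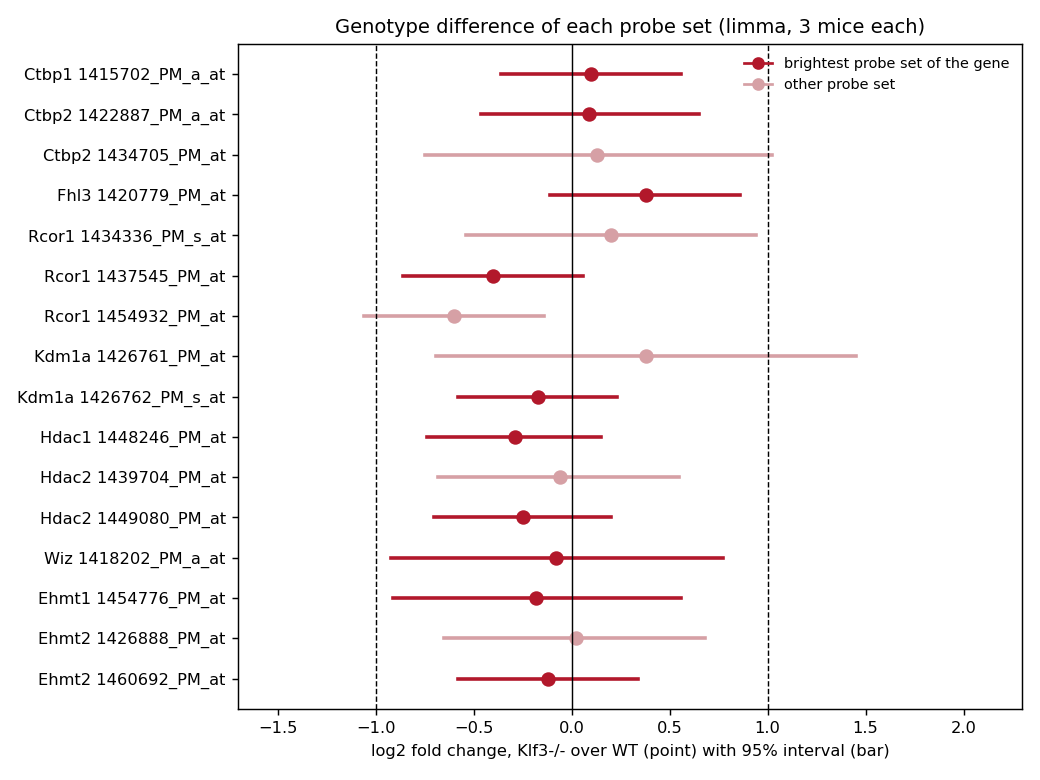
Log2 fold change of Klf3-/- over WT for each of the 16 probe sets (x axis, points) with its 95% interval from limma (bars), the brightest probe set of each gene in dark red; dashed lines mark 1 log2 unit either way. The intervals of 15 probe sets cross 0 and that of Rcor1 1454932_PM_at, -1.06 to -0.14, lies below it.

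Over the 10 genes the fitted value was higher in Klf3-/- for 3 (Ctbp1, Ctbp2 and Fhl3) and lower for 7, with a median log2 fold change of -0.15 beside -0.04 over all genes. The 3 genes with a positive value were the direct contacts of KLF3 and the 7 with a negative value were the enzymes and their adaptors, but on the values as deposited Kdm1a, Wiz, Ehmt1 and Ehmt2 were positive too, and Ctbp1 turned negative without WT mouse 2 and Ctbp2 without Klf3-/- mouse 3. None of these single values passed the test, and the median was 0.07 on the values as deposited. Over the 16 probe sets the median was -0.07, beside -0.03 over all probe sets.

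The genotypes did not overlap in 1 member probe set that was higher (Fhl3) and 2 that were lower (both Rcor1) in Klf3-/-, against 4.49% of all probe sets higher and 6.51% lower. On the values as deposited and on values centred on array medians, 0 members separated. The labels call the mice litter-matched without tying numbers to litters, and arrays of the same replicate number were weakly correlated, so differences within numbered pairs were also read. Of the 16 probe sets, 2 were higher in Klf3-/- in all 3 pairs (Fhl3 and Ctbp2 1434705_PM_at) and 4 were lower (both lower Rcor1 probe sets, Kdm1a 1426762_PM_s_at and Hdac2 1449080_PM_at), beside 11.5% and 18% of all probe sets.

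**Figure D3:**
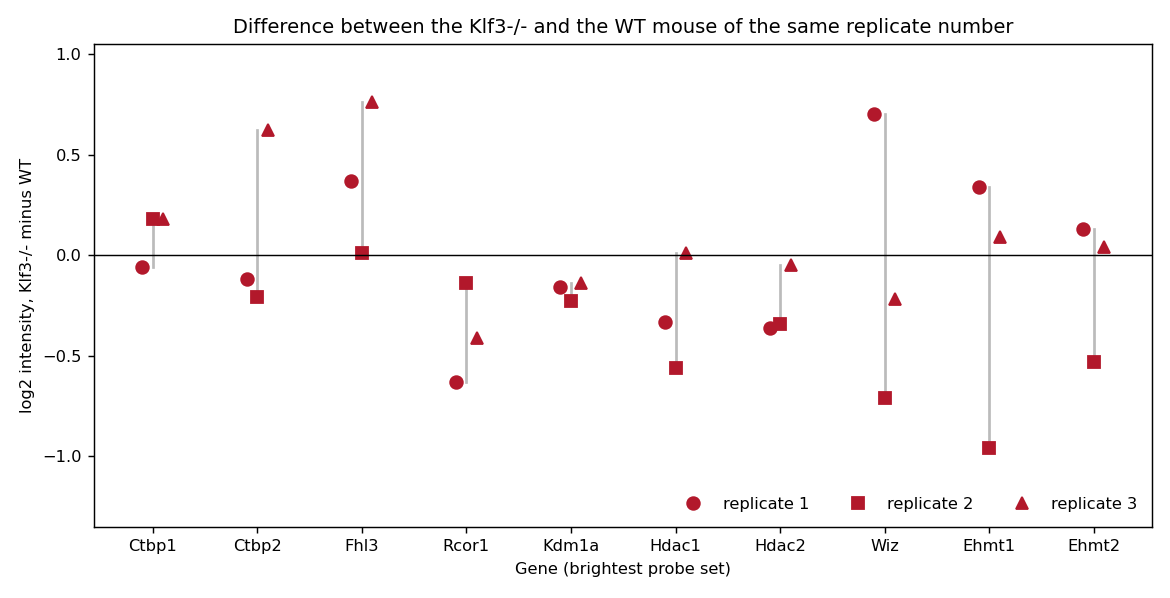
Log2 intensity of the Klf3-/- mouse minus that of the WT mouse of the same replicate number (y axis) for the brightest probe set of each gene (x axis); marker shapes are the 3 pairs. All 3 points lie above 0 for Fhl3 (0.37, 0.01 and 0.76) and below 0 for Rcor1 (-0.63, -0.14 and -0.41), Kdm1a and Hdac2.

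The intervals set how large a change these arrays leave room for. For all 10 genes the 95% interval of the brightest probe set lay within 1 log2 unit, that is a 2-fold change, in either direction, with bounds between -0.92 and 0.86. This held for 13 of the 16 probe sets and for 68.3% of all probe sets. It rests on putting the arrays on a common scale: 0 of the 10 intervals lay within that range for the values as deposited. For values centred on array medians 9 did, and 6 to 8 did when 1 array was left out. The spread within a genotype was small for these genes, with a median SD of 0.25 over the 16 probe sets (0.09 to 0.70) beside 0.36 over probe sets above background.

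Among mice, WT mouse 2 was the highest array for 5 of the 10 genes and Klf3-/- mouse 3 for 3. The mean over the 10 genes was 7.88, 7.82 and 7.97 in Klf3-/- mice 1 to 3 and 7.89, 8.17 and 7.89 in WT mice 1 to 3. WT mouse 2 also had the lowest quality weight of the 6 arrays (0.616, the highest being 2.17) and the highest summed dendritic cell marker level. Without it, the median over the 10 genes was -0.01.

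Most dendritic cell markers were lower and most stromal markers higher in Klf3-/- on these arrays. None of their genes passed the adjusted p in limma (lowest 0.600 and 0.200). The 10 dendritic cell markers summed to linear levels of 17400 to 22500 in Klf3-/- and 23000 to 30900 in WT without overlap. Such a sum is led by its brightest genes, here H2-Aa, Cd74 and H2-Ab1 (log2 means over all arrays 13.18, 12.48 and 12). Taken singly, Itgax, H2-Eb1 and H2-Aa were lower without overlap. The genotypes overlapped for Flt3, Zbtb46, Xcr1, Cd209a, Cd74, H2-Ab1 and Irf8. Of the 10 markers 9 were lower, and the median of the 10 differences was -0.58. In limma 2 were under an unadjusted p of 0.05 (Itgax at -1.69 and H2-Eb1 at -0.79, named after their values were seen). None of the 10 lay at background. The 15 stromal markers summed to 19100 to 30100 in Klf3-/- and 12800 to 19800 in WT, with overlap, 13 of 15 being higher with a median of 0.71. Under an unadjusted p of 0.05 in limma, 6 were higher and 1 was lower, beside 3.61% higher and 2.47% lower over all genes. The brightest genes of these lists were the antigen-presentation genes H2-Aa (13.08 ± 0.17 in Klf3-/- and 13.29 in each WT mouse, where it held the same rank and so took the same quantile) and Cd74 (12.29 ± 0.21 in Klf3-/- and 12.67 ± 0.36 in WT) and the matrix genes Dcn (12.68 ± 0.42 in Klf3-/- and 11.97 ± 0.38 in WT) and Col3a1 (12.86 ± 0.19 in Klf3-/- and 12.56 ± 0.31 in WT). The part of either list in the Rcor1, Fhl3 or other member values was not tested.

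Other chromatin genes gave the surroundings of the complex. Over 8 lists holding 78 measured genes besides Klf3, 1 gene was higher (Klf12) and 3 were lower (Zmym3, Phf21a and Kdm4a) at an unadjusted p under 0.05 in limma. Over all genes 3.61% were higher and 2.47% lower at that threshold, and the counts in the lists were near these shares. None passed the adjusted p (lowest 0.663), and the median log2 fold change was -0.05. Of the other CtBP and CoREST complex genes, 11 of 15 were measured, 5 with a positive and 6 with a negative value and a median of -0.27 (-0.03 as deposited). Of the first 0 and of the second 2 passed the unadjusted threshold, beside the same shares over all genes. Zmym3, a zinc finger subunit, measured 5.62, 5.89 and 6.09 in Klf3-/- against 6.14, 6.91 and 6.55 in WT (-0.66, adjusted p = 0.876). Phf21a (BHC80), the subunit that reads unmethylated lysine 4, measured 6.98, 7.44 and 7.24 in Klf3-/- against 7.69, 7.83 and 7.62 in WT (-0.49, adjusted p = 0.888). Hmg20b (BRAF35), a DNA-bending subunit, measured 7.19, 6.69 and 7.49 in Klf3-/- against 7.51, 7.75 and 7.59 in WT (-0.49, adjusted p = 0.910). These 3 genes, named for having the smallest p of the 11, were lower without overlap, beside 6.51% of all probe sets, and the other 8 overlapped between genotypes: Zeb1, Zmym2 and Kdm1b had negative values and Rcor2, Rcor3, Zfp217, Zeb2 and Zfp516 positive ones.

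Klf12, a KLF with its own CtBP contact motif, measured 7.06, 7.0 and 6.61 in Klf3-/- against 5.46, 5.13 and 5.92 in WT. Its means of 6.89 ± 0.24 and 5.50 ± 0.40 (Klf3-/- and WT) differed by 1.39 without overlap, with an adjusted p of 0.663 in limma. Klf12 and Klf3 were the 2 of 3 genes of this list that were measured. Their median of 1.04 takes in Klf3, the disrupted gene, by its brightest probe set (0.69), and is no separate result about the list. The other zinc-dependent histone deacetylases were measured for 7 of 9 genes, 6 with a positive value and a median of 0.48, none under an unadjusted p of 0.05. The examples with the smallest p were Hdac5 (8.80 ± 0.42 in Klf3-/- and 8.26 ± 0.21 in WT), Hdac7 (9.40 ± 0.38 in Klf3-/- and 8.78 ± 1.0 in WT) and Hdac11 (6.54 ± 1.39 in Klf3-/- and 5.81 ± 0.51 in WT), with differences of 0.54, 0.63 and 0.73 and overlapping genotypes. The wide spread of Hdac7 came with WT mouse 2 at 7.62, and that of Hdac11 with Klf3-/- mouse 3 at 8.03.

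Subunits of class I deacetylase complexes were measured for 20 of 23 genes, 4 with a positive and 16 with a negative value, with a median of -0.13 (0.07 as deposited) and none under an unadjusted p of 0.05. Mbd3 (-0.54) and Sin3b (-0.39) were on the low side and Mbd2 (0.53) on the high side. For other genes of lysine 9 methylation and heterochromatin, 13 of 14 were measured, 3 with a positive and 10 with a negative value (median -0.13, and 0.12 as deposited). None passed an unadjusted p of 0.05, and the smallest p were those of Prdm16 (-0.51), Prdm2 (-0.61) and Cdyl (-0.30). Among lysine 9 demethylases (9 of 10 measured, median 0.02), Kdm4a was lower at 4.28 ± 0.18 in Klf3-/- and 4.83 ± 0.15 in WT (-0.55, adjusted p = 0.868) on a probe set whose mean lay below background. Kdm4b (-0.64) and Kdm3a (0.14) followed. Other FHL genes and further LIM-domain genes (9 of 9, median -0.08, and 0.11 as deposited) included Lpp (0.28), Fhl2 (-0.25) and Lims1 (-0.17). Histone acetyltransferases (8 of 10, median -0.06, and 0.15 as deposited) included Kat2b (0.51), Kat8 (0.33) and Kat7 (-0.22). None of these 6 genes lay under an unadjusted p of 0.05.

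**Figure D4:**
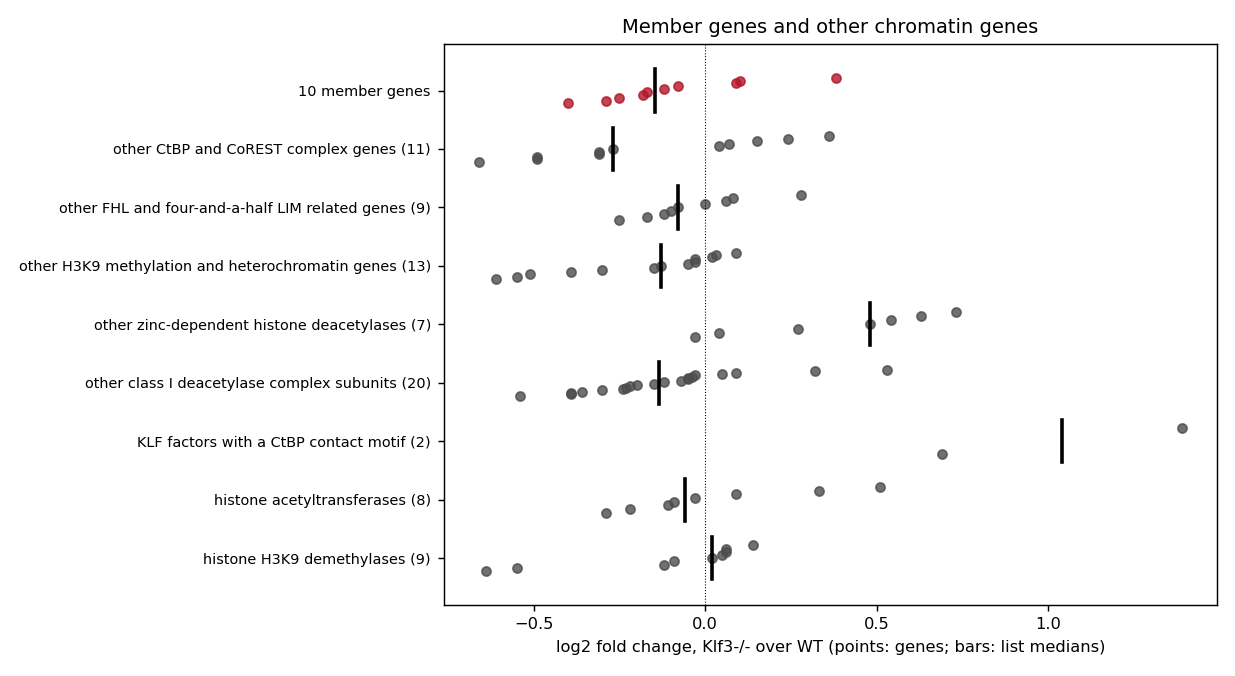
Log2 fold change of Klf3-/- over WT (x axis) for the 10 corepressor genes (red) and the measured genes of 8 other chromatin lists (grey, number measured in brackets), 1 point per gene by its brightest probe set, with black bars at list medians. The corepressor genes lie between -0.40 and 0.38, within the range of the other lists, and the farthest point to the right is Klf12 at 1.39.

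The profiles most like those of the direct partners were sought over the 6 arrays among 11942 genes above background. The highest Pearson correlations with Ctbp1 were those of Mcoln1 (0.993), Ski (0.988) and Alkbh8 (0.981), and with Ctbp2 those of Lyl1 (0.990), Pstpip2 (0.988) and Cxcr3 (0.986). For Fhl3 they were Gtf2h5 (0.997), Rtl8a (0.995) and Slc16a3 (0.992). With 6 points sharing arrays and normalisation, and so many genes searched, values of this size describe the arrays only. Ctbp1 and Ctbp2 correlated at 0.371 with each other, Ctbp1 with Fhl3 at 0.20 and Ctbp2 with Fhl3 at 0.41.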

How the data were processed

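The authors amplified RNA of sorted eosinophils with the Affymetrix 3′ IVT Pico Kit, hybridised it to GeneChip HT MG-430PM arrays and processed the arrays in Partek, with RMA named as the normalisation. The table the authors deposited holds 1 linear intensity per mouse for 45037 probe sets. Which RMA steps it went through is not stated in the sources. Log2 intensities were quantile-normalised between arrays and fitted with limma 3.58.1 (lmFit and eBayes) under R 4.3.3 in a model of genotype alone. Adjustment was by Benjamini-Hochberg over all probe sets, and an adjusted p under 0.05 counted as a call. The methods name a two-way analysis but do not state its second factor. Intervals are 95% intervals of that fit. Single values were compared by exact two-sided permutation tests (scipy 1.17.1), and figures were drawn with matplotlib 3.10.9. With 3 arrays per genotype, their number limits the precision.

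Probe sets were named through the platform annotation: 28898 had 1 symbol, 551 several and 15588 none. The annotation names no assembly, and gene positions and promoters come from RefSeq tables by symbol. The members and lists were chosen with earlier results of these data known. Named genes are all members by every probe set, the 3 genes with the smallest unadjusted p of each other chromatin list, leading cell type markers, Klf3, and the 3 genes most correlated with Ctbp1, Ctbp2 and Fhl3. The script was tested on simulated data: in 10 simulations of this comparison over 45037 probe sets, the adjusted threshold recovered 0% of probe sets given a shift of 1 log2 unit, 58.4% at a shift of 2 and 87.3% at a shift of 3.

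After subtracting genotype means, arrays sharing a replicate number were weakly correlated (r = 0.168, 0.225 and 0.207), against -0.179 to -0.0128 for different numbers, so the numbers were used as a block in an alternative. Deviations from a genotype mean cancel within the genotype, so positive values for equal numbers bring negative ones for different numbers. The negative values are therefore no separate evidence. The labels call the mice litter-matched but do not tie a number to a litter. Other alternatives were values as deposited, values centred on array medians, trend and robust fitting, array weights, an ordinary linear model, leaving out dim probe sets, averaging a gene's probe sets and omitting each array in turn. The background level with olfactory receptor pseudogenes was added after seeing the data.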

Additional observations from a re-analysis of the deposited data

How the results depend on the processing

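Over the 16 probe sets and 13 alternatives, 187 of 208 values kept their direction, 21 took the other and 0 passed the adjusted threshold. The replicate block, trend and robust fitting, the ordinary linear model and leaving out dim probe sets cannot alter the fold change in this balanced design. Their agreement was fixed in advance and is part of the 187. Nor did any of all the probe sets pass the adjusted threshold under any setting, so the 0 is not particular to the members. The 6 probe sets that kept their direction throughout were those of Fhl3 and Hdac1, Rcor1 1437545_PM_at and 1454932_PM_at, Kdm1a 1426761_PM_at and Hdac2 1449080_PM_at. With the replicate number as a block, 0 member probe sets passed the adjusted threshold (lowest adjusted p 0.68), 1 was lower and 0 higher at an unadjusted p under 0.05, and pairing changed no call. The unadjusted count of members was 2 lower with array weights and without Klf3-/- mouse 2, and 1 higher and 1 lower without Klf3-/- mouse 3.

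As deposited, the direction turned for Kdm1a 1426762_PM_s_at (0.05), Hdac2 1439704_PM_at (0.191), Wiz (0.135), Ehmt1 (0.024) and Ehmt2 1460692_PM_at (0.081). The median over all probe sets was 0.13 there, against -0.03 after quantile normalisation. With array weights it turned for Wiz (0.261), Ehmt1 (0.007) and Ehmt2 1426888_PM_at (-0.131). Averaging the probe sets of a gene in place of the brightest turned Kdm1a to 0.104. Leaving out 1 array at a time gave ranges of -0.017 to 0.184 for Ctbp1, -0.134 to 0.210 for Ctbp2 1422887_PM_a_at, -0.146 to 0.466 for Ctbp2 1434705_PM_at, -0.119 to 0.369 for Rcor1 1434336_PM_s_at, -0.257 to 0.134 for Hdac2 1439704_PM_at, -0.487 to 0.219 for Wiz, -0.360 to 0.166 for Ehmt1 and -0.195 to 0.237 for Ehmt2 1426888_PM_at.

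The median over the 10 genes (-0.148) was -0.016 with array weights, 0.066 as deposited and -0.229 to -0.010 with 1 array left out, the highest without WT mouse 2. The 3 probe sets without overlap became 0 as deposited and 0 after median centring, and 3 to 7 with 1 array left out: 7 without Klf3-/- mouse 3, 5 without WT mouse 1 and 5 without WT mouse 3. Fewer arrays separate more easily, and the share over all probe sets was not taken with 1 array left out. The rise in these counts is therefore no result about the members or about a mouse. Other chromatin genes under an unadjusted p of 0.05 (4) numbered 1 as deposited, 2 without dim probe sets, 2 with trend and robust fitting and 2 to 6 with 1 array left out, the lowest without WT mouse 1. Without dim probe sets, 1647 of the 27461 probe sets left were under it, a count over a smaller set. Over all 45037 probe sets 2475 were under it, and 1212 as deposited. Of the 2475 calls 56.5% were higher in Klf3-/-, against 94.9% as deposited and 40.2% with an ordinary linear model. The causes of these shifts were not tested. An adjusted p above the threshold says little about changes under 2 log2 units, where the recovery rate in simulations was low.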

Other observations

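Both probe sets that pair Ctbp2 with a second symbol, and were therefore left out above, read on their own as follows. Probe set 1436228_PM_at measured 7.08, 7.42 and 7.20 in Klf3-/- and 6.87, 7.10 and 6.88 in WT, a log2 fold change of 0.28 (limma adjusted p = 0.927). Probe set 1454651_PM_x_at measured 10.80, 7.09 and 9.76 in Klf3-/- and 11.30, 8.14 and 10.77 in WT, which is -0.85 as a log2 fold change (adjusted p = 0.965). Both mice numbered 2 were far below the others. The Klf3-/- mouse was the higher one in each numbered pair for 1436228_PM_at and the lower one in each for 1454651_PM_x_at.

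Markers of other cell types were read beside the members. As summed linear levels, 8 neutrophil markers ranged from 1030 to 2640 in Klf3-/- and from 504 to 1450 in WT, and 6 B cell markers from 1180 to 2220 in Klf3-/- and from 1690 to 2400 in WT. For 8 T cell and innate lymphoid markers the ranges were 1660 to 5260 in Klf3-/- and 2330 to 5350 in WT. For 9 mast cell markers they were 778 to 8660 in Klf3-/- and 462 to 4300 in WT, and for 8 endothelial markers 1220 to 4550 in Klf3-/- and 1460 to 6060 in WT. All 5 ranges overlapped between genotypes. Of the measured genes, 4 neutrophil markers had a positive and 4 a negative value (median -0.13), 0 and 6 B cell markers (-0.53), 4 and 4 T cell and innate lymphoid markers (-0.03), 8 and 1 mast cell markers (0.84) and 1 and 7 endothelial markers (-0.31). For the 2 brightest genes of each list, log2 fold changes were 3.11 for Ltf and 0.79 for S100a9 (neutrophil granule proteins), -0.61 for Ms4a1 and -0.21 for Cd79a (B cells), 0.44 for Cd3g and 0.29 for Cd3e (T cells), 1.14 for Cpa3 and 0.84 for Cma1 (mast cell proteases) and -0.46 for Egfl7 and -0.01 for Pecam1 (endothelium). Other members ran the other way, such as Camp (-1.49) and Cxcr2 (-0.77) on the neutrophil list and Cd8a (-1.52) and Cd4 (-1.11) on the T cell list. At an unadjusted p under 0.05 in limma were Ltf, the B cell markers Ighm (-0.66) and Blnk (-0.60), Gata3 (1.80) and Cd8a. No mast cell or endothelial marker was. The 17 macrophage markers summed to 18000 to 39100 in Klf3-/- and 14000 to 27600 in WT, 12 with a positive and 5 with a negative value (median 0.14). The brightest were C1qa (0.14) and Apoe (-0.39), and under an unadjusted p of 0.05 lay Marco (-2.81), Lyve1 (2.21) and Folr2 (1.6). The 16 eosinophil markers summed to 4420 to 6060 in Klf3-/- and 4290 to 5040 in WT, 8 with a positive and 8 with a negative value. The brightest were S100a10 (0.79) and Cd24a (-0.18), and under an unadjusted p of 0.05 lay Pira1 (2.07) and S100a10. Over all genes 3.61% were higher and 2.47% lower at that threshold in limma. Genes outside the 2 brightest of a list were named after their values were seen. No marker passed the adjusted threshold in limma. The part of these cell types in the corepressor values was not tested.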
